A study of Pimephales promelas with 20 samples.

Results

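The livers of female fathead minnows exposed for 48 h to the highest phenanthrene dose of the study, 1006 ng/L, were compared with livers exposed to the lowest dose, 29 ng/L, and no control entered the comparison. The arrays were chosen by their dose label alone, which gave 5 arrays at 1006 ng/L (replicates 41, 42, 44, 45 and 46) and 5 at 29 ng/L (replicates 22 to 26), 10 of the 20 arrays in the series. The other 10 are 5 controls, labelled 0 ng/L, and 5 arrays at 287 ng/L. The fathead minnow (Pimephales promelas) is a small freshwater fish used widely in toxicity testing, and the study set out to follow liver gene expression over increasing doses given to living fish. Each array measured Cy3-labelled total RNA of 1 liver sample on a 1-colour Agilent design with 15208 probes for fish sequences. The doses compared stand 34.7-fold apart. The labels give no age, strain or holding conditions, and nothing in them says whether the 5 samples of a dose are 5 fish, and the p-values below therefore speak only to the variation among these arrays, part or all of which may be technical.

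Phenanthrene is a polycyclic aromatic hydrocarbon, a compound of fused benzene rings found in petroleum and in the products of incomplete burning. Fish take such compounds up through gill and gut, and the liver oxidizes them with cytochrome P450 enzymes and couples the products to glutathione, glucuronic acid or sulfate, after which they leave with the bile. Many larger members of the family switch on cytochrome P450 1A through the aryl hydrocarbon receptor, a ligand-activated transcription factor, and phenanthrene itself is a weak activator of that receptor. In female fish the liver also makes vitellogenin, the egg yolk precursor, under the control of estrogen.

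None of these genes could be looked up, because the probe names and contig names in the files are not paired with gene names, and 0 of them matched a gene symbol, gene number or accession in the RefSeq table of this species. The lists of detoxification, stress, egg protein, lipid, bile acid, acute phase and cell type marker genes therefore could not be applied, and the label "liver" could not be checked against hepatocyte markers. Of the fish probes, 11862 carry the name of an assembled contig and 3309 a sequence number. Results below are given by probe, as log2 of the normalized signal, where 1 unit is a 2-fold difference in signal.

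Between 8889 and 12278 fish probes were well above background on each array. The mean was 10318 ± 1367 at 29 ng/L (SD, n = 5) and 10689 ± 1186 at 1006 ng/L (SD, n = 5), a difference smaller than the spread within either dose. The 75th percentile of the raw processed signal ran from 220 to 511 at 29 ng/L and from 246 to 684 at 1006 ng/L. Some arrays stood apart. In 29 ng/L replicate 22, 201 spots were marked non-uniform or as population outliers, where the others had 0 to 5. Replicate 26 at 29 ng/L was the brightest of its dose. A dim patch lay on 1006 ng/L replicate 42, with 8 of 96 blocks of spots more than 0.5 log2 units under the median array. None of the other 9 arrays had such a block. The number of arrays limits the precision of every value that follows.

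Over the whole transcript profile the arrays of the doses overlapped. The correlation of log2 signal across probes had a median of 0.863 over the 10 pairs of arrays at 29 ng/L, 0.895 over the 10 pairs at 1006 ng/L and 0.873 over the 25 pairs with 1 array of each dose. The pairs from different doses thus lay, in the median, between the pairs within either dose. Component 1 of a principal component analysis over 9937 probes carried 39.9% of the variance, and its scores were -51.4, -34.9, -70.5, -35.5 and 87.2 for 29 ng/L replicates 22 to 26. At 1006 ng/L the scores were 16.6, -21.4, 71.4, 99.4 and -60.8 for replicates 41, 42, 44, 45 and 46. The groups overlapped through 29 ng/L replicate 26, which lay between 1006 ng/L replicates 44 and 45, and through 1006 ng/L replicate 46, which lay among 29 ng/L replicates 22 to 25. Replicates 26 and 46 are used here at their labelled doses, which their sample titles repeat as low and high. Nothing beyond these labels could check the doses, so their values enter the dose means on the labels alone. The difference in mean score, 42.05, had p = 0.302 in a two-sided exact permutation test over all 252 splits of 5 and 5, where the smallest p possible is 0.00794. Components 2 and 3, which carried 18.7% and 9.63% of the variance, had exact permutation p of 0.381 and 0.111. Probes above background and array brightness had exact permutation p of 0.635 and 0.817, and over these 5 measures the adjusted p ran from 0.556 to 0.817. Replicate 22 at 29 ng/L alone held 80.0% of the sum of squares on component 2.

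**Figure D1:**
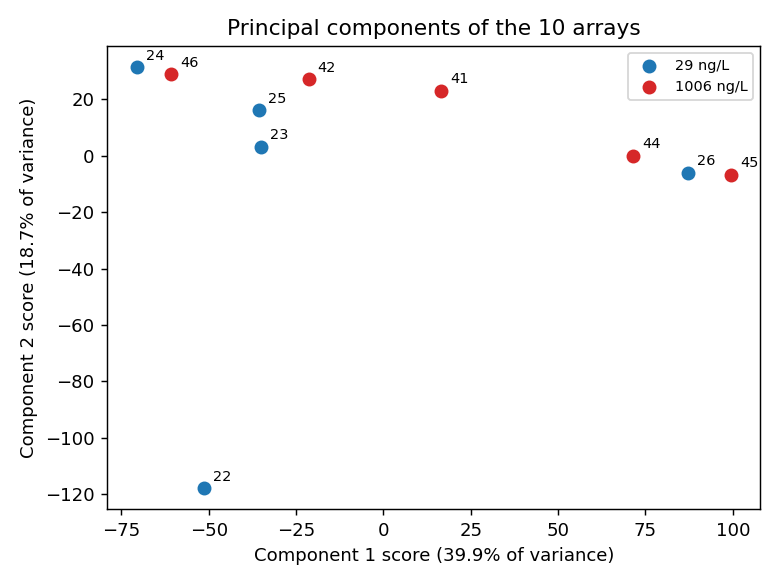
Scores of the 10 arrays on principal components 1 (39.9% of variance) and 2 (18.7%), with arrays at 29 ng/L in blue and at 1006 ng/L in red and the replicate number beside each point. The colours mix along component 1, with replicate 26 at 29 ng/L next to replicates 44 and 45 at 1006 ng/L, and replicate 22 at 29 ng/L lies alone at the bottom.

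Arrays of the same dose differed widely from each other. The median SD within a dose was 0.76 log2 units at 29 ng/L and 0.65 at 1006 ng/L, while the median absolute difference between the dose means was 0.39 log2 units. The SD was the larger at 29 ng/L for 5950 of the probes tested (58.9%), but the ratio of the median SDs, 1.17, turned to 0.934 without 29 ng/L replicate 22 and to 0.994 without replicate 26. These same arrays were the farthest from their group's median most often, 37.5% of probes for replicate 22 and 34.5% for replicate 26. At 1006 ng/L replicates 45 and 46 took that place for 30.0% and 25.9% of probes. Some probes varied widely among arrays of the same dose: 1019 probes (10.1%) spanned more than 4 log2 units within 29 ng/L and 863 (8.54%) within 1006 ng/L.

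Tested probe by probe, no transcript passed the threshold between the doses. A probe was tested where at least 4 arrays of 1 dose read it well above background, which 10100 probes (66.4% of the fish probes) met. With limma's moderated test and Benjamini-Hochberg adjustment, 0 probes (0% of those tested) had an adjusted p under 0.05, and the lowest adjusted p was 0.224. An ordinary linear model without moderation also called 0. At an unadjusted p under 0.05 limma counted 651 probes (6.45%), of which 217 were higher at 1006 ng/L (2.15% of probes tested) and 434 lower (4.3%). A share of 5% of the probes tested would be 505 probes. The ordinary linear model counted 642, with 252 higher and 390 lower.

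The imbalance towards lower signal at 1006 ng/L was seen among these 651 probes but hardly over the whole array. Of all probes tested, 4932 had the higher mean at 1006 ng/L and 5168 the lower, and the median difference was -0.02 log2 units. The direction also depended on which arrays were set side by side. Within slide 3, with 2 arrays of each dose, 1252 probes (11.2% of the 11168 tested there) had an unadjusted limma p under 0.05. Of these, 69.1% were higher at 1006 ng/L. Within slide 4, also with 2 of each, 271 did (2.56% of 10584), and 33.9% of them were higher. Each slide fit had 2 residual degrees of freedom and was normalized on its own arrays. It tested probes well above background on both arrays of either dose, a looser filter than that of the main comparison. With slide as a fixed block the count was 477 (4.72% of 10100), and 0 probes were called in any of these 3 fits. Among the arrays compared, the remaining 2 were each alone on their slide and came from the other scan session, too few to give a value. The 8 arrays of the first session gave 495 probes (5.55% of 8919) and 0 calls. The dim patch of 1006 ng/L replicate 42 covered 854 of the probes tested and 89 of the 651. With its spots set to missing, an alternative chosen after seeing the data, the count was 624 (6.18%), 227 higher and 397 lower.

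Array by array, 52 probes were higher on all 5 arrays at 1006 ng/L than on any at 29 ng/L (0.515% of probes tested), and 67 were lower on all 5 (0.663%), 119 in all (1.18%). This count rested heavily on 1 array. Without 29 ng/L replicate 26, which lay beside 1006 ng/L replicates 44 and 45 on component 1, 632 probes did not overlap (309 higher and 323 lower). These were 6.45% of the probes tested then, and 1402 (14.3%) had an unadjusted limma p under 0.05. Leaving out any other single array gave 150 to 236 non-overlapping probes (1.53% to 2.45% of those tested). An unadjusted limma p under 0.05 was then found for 418 to 721 probes (4.26% to 7.48%). Fewer arrays overlap less often by construction. Over all splits of the arrays, a probe separates fully, in either direction, with probability 0.00794 at 5 and 5 arrays. With 1 array left out that probability is 0.0159. Probes share the arrays, so these values are a yardstick and not a test.

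**Figure D2:**
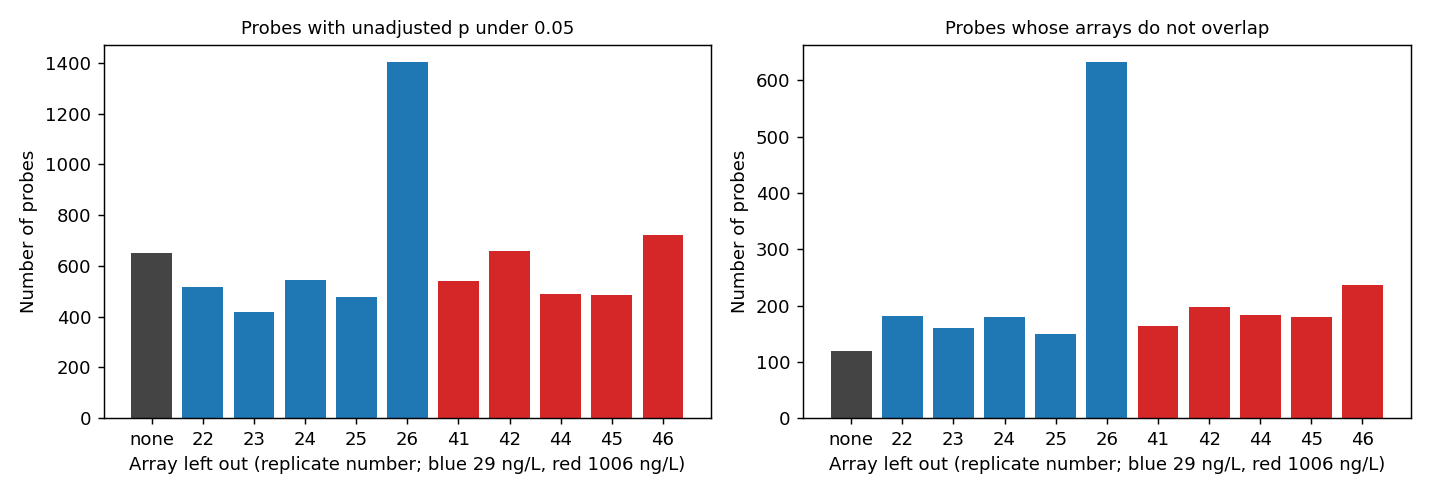
Number of probes with an unadjusted limma p under 0.05 (left) and number whose 5 arrays at one dose all lie beyond those of the other (right), with all 10 arrays (grey bar, 651 and 119) and with each array left out in turn (blue, 29 ng/L; red, 1006 ng/L). The bar without replicate 26 at 29 ng/L stands highest in both panels, at 1402 and 632 (14.3% and 6.45% of the probes tested then).

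The size of difference these arrays can bound varied with brightness. For 1938 probes (19.2% of those tested) the 95% interval of the difference lay within 1 log2 unit either side of 0, so a 2-fold difference in the mean lies outside it, and for the other 8162 (80.8%) the interval reached beyond 1 unit. The interval typically reached 1.01 log2 units (median) to either side of the difference. Among the brightest probes, with a mean log2 signal over 10, 32.6% had an interval within 1 unit, against 10.8% of those between 4 and 6. The median SD was 0.57 against 0.90 for these bins at 29 ng/L and 0.45 against 0.76 at 1006 ng/L, lower among the bright probes at both doses. The share with an unadjusted p under 0.05 was 5.55% between 4 and 6, 6.64% over 10, and 14.3% among the 357 dimmest probes, under 4. Probes this dim can pass the filter through 1 dose where they are brighter, which by itself can raise their share. The 14.3% is therefore a description and not a result about dim probes.

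Mean differences over 1 log2 unit were found for 1250 probes (12.4%), 590 higher (5.84%) and 660 lower (6.53%) at 1006 ng/L. Of these, 487 (4.82% of probes tested) had an unadjusted p under 0.05. For 31 probes (0.307% of those tested) the whole interval, not adjusted for the number of probes tested, lay beyond 1 unit. Of them 7 were higher (0.0693%) and 24 lower (0.238%).

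**Figure D3:**
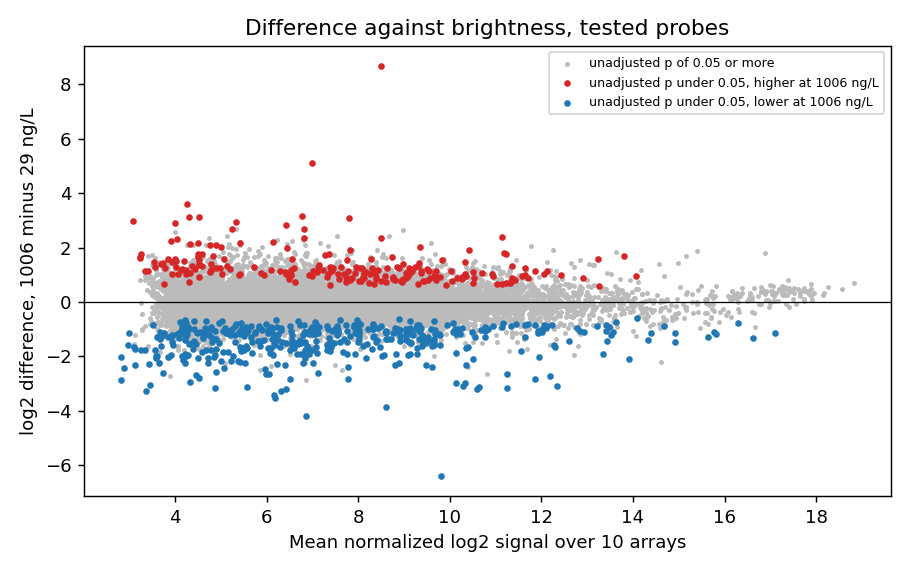
Difference in mean log2 signal, 1006 minus 29 ng/L, against the mean log2 signal over the 10 arrays for the 10100 probes tested. Grey points have an unadjusted limma p of 0.05 or more, the 217 red points are higher and the 434 blue points lower with an unadjusted p under 0.05, and the red point at the top is the probe with a difference of 8.66.

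The probes with the lowest unadjusted p in each direction are described next. They were picked for their p out of all probes tested, so each p is read after adjustment over all of them. The probe UF_Ppr_AF_116715, made for contig FJU.9659.C2, read 5.31, 5.60, 5.17, 5.31 and 5.83 log2 units on 29 ng/L replicates 22 to 26. At 1006 ng/L it read 8.04, 6.99, 8.08, 7.06 and 6.98 on replicates 41, 42, 44, 45 and 46. All 5 arrays at the high dose lay above all 5 at the low dose, by at least 1.15 log2 units, and 2 of them, replicates 41 and 44, lay about a unit above the other 3. The difference was 1.99 log2 units (SE 0.33, 95% interval 1.26 to 2.72), a 3.97-fold higher signal, with a limma adjusted p of 0.224. The controls, at 6.65 ± 0.94 (SD, n = 5), and the 287 ng/L arrays, at 7.03 ± 1.36, had means between those of the doses compared. Their arrays, at 5.60 to 7.93 and 5.77 to 8.88, overlapped both doses. The control mean lay above that at 29 ng/L, so the means did not follow the dose from the controls upward. The normexp background correction lowered the difference to 1.096.

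The second higher probe, UF_Ppr_AF_112748 (contig FJU.10446.C2), was brighter. On 29 ng/L replicates 22 to 26 it read 9.27, 10.26, 9.28, 9.14 and 9.30. On 1006 ng/L replicates 41, 42, 44, 45 and 46 it read 11.76, 11.19, 11.37, 10.74 and 11.80. The groups did not overlap, and the gap of 0.48 lay between replicate 23 of the low dose, which stood almost a unit above the others of its group, and replicate 45 of the high dose. The difference was 1.92 log2 units (SE 0.33, 95% interval 1.20 to 2.65), a 3.79-fold higher signal, with a limma adjusted p of 0.224.

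Its means over the 4 groups followed the dose, from 7.17 ± 0.54 in the controls (SD, n = 5) through 9.67 ± 1.25 at 287 ng/L to 11.37 ± 0.44 at 1006 ng/L, with 29 ng/L at 9.45 ± 0.46. The controls, at 6.47 to 7.82, lay under every array at 29 ng/L. The 287 ng/L arrays read 8.51 to 11.75, which overlaps both the 29 and the 1006 ng/L arrays, and without replicate 27, the one at 11.75, their mean lay under that at 29 ng/L by 0.29 log2 units (difference -0.29). The neighbours 29 and 287 ng/L thus did not differ beyond their spread.

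The lower probe with the smallest p, UF_Ppr_AF_101157 (contig FJU.6533.C1), read 5.79, 6.06, 6.47, 6.41 and 4.30 on 29 ng/L replicates 22 to 26. It read 3.39, 3.38, 2.997, 3.19 and 2.62 on 1006 ng/L replicates 41, 42, 44, 45 and 46, and there it was well above background on only 2 of the 5 arrays, against 5 of 5 at 29 ng/L. Every array at the high dose lay below every array at the low dose, with a gap of 0.91 to replicate 26. The measured difference was -2.69 log2 units (SE 0.42, 95% interval -3.62 to -1.76), a 6.45-fold lower signal, with a limma adjusted p of 0.224. With only 2 of the 5 arrays at 1006 ng/L well above background, the size of this difference is uncertain. Without 29 ng/L replicate 26 it was -3.06 (SE 0.30) with a limma adjusted p of 0.00992, the 1 probe called in that fit. Replicate 26 was the lowest of the low dose on this probe, so leaving it out widens the difference by construction. The probe also passed the filter through 29 ng/L alone, so the p of that fit is a description. Over the 28 alternatives that tested the probe the adjusted p ran from 0.00992 to 1.0. After normexp background correction, which adds an offset of 50 to every signal, the difference was -0.77. The controls, at 5.44 ± 0.67 (SD, n = 5), lay near the low dose. The mean at 287 ng/L, 4.39 ± 1.03, lay between those of the doses compared, but its arrays, at 2.72 to 5.56, overlapped both.

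The assembly holds a further contig of the same cluster, FJU.6533.C2, with a probe of its own. That probe read 5.11, 6.23, 6.64, 6.35 and 4.41 on the 29 ng/L arrays and 3.93, 3.995, 4.21, 4.14 and 3.89 on the 1006 ng/L arrays, in the same order of replicates. The groups again did not overlap, and replicate 26 was again the lowest of the low dose. The difference was -1.72 log2 units (SE 0.43), with a limma adjusted p of 0.593, and the probe was well above background on 3 of 5 arrays at 1006 ng/L. Contigs of a cluster did not in general move closely together: over the 675 clusters with exactly 2 contigs tested, the log2 differences correlated at r = 0.249 across clusters, and 403 pairs (59.7%) had the same sign. In 11 clusters both contigs had an unadjusted p under 0.05, and 10 of these had the same sign.

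The second lower probe, UF_Ppr_AF_105101 (contig FJU.962.C1), read 7.57, 9.19, 7.69, 8.02 and 6.94 on 29 ng/L replicates 22 to 26. It read 5.04, 4.80, 5.49, 4.38 and 2.49 on the 1006 ng/L arrays, the last value, on replicate 46, not being well above background. The groups did not overlap, with a gap of 1.45. The difference was -3.44 log2 units (SE 0.59, 95% interval -4.73 to -2.16), a 10.9-fold lower signal, with a limma adjusted p of 0.224, and it was -1.83 after normexp. The other groups spread widely, from 4.78 to 9.76 in the controls and from 5.25 to 10.04 at 287 ng/L, and each of them overlapped both doses compared. None of these 4 probes lay in the dim patch of 1006 ng/L replicate 42.

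**Figure D4:**
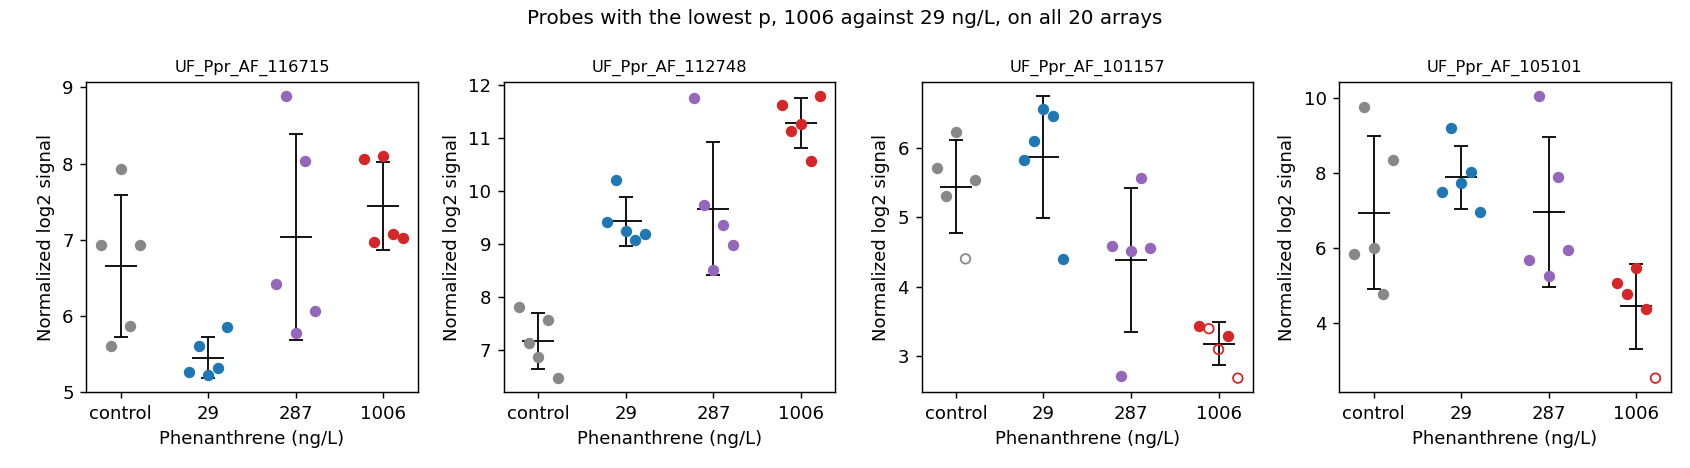
Normalized log2 signal of the 2 higher and 2 lower probes with the lowest unadjusted p, on all 20 arrays normalized together, by phenanthrene dose; points are arrays, open where not well above background, and bars are the mean and SD of 5 arrays. The 29 ng/L (blue) and 1006 ng/L (red) arrays do not overlap in any panel, whereas the 287 ng/L arrays (purple) spread over much of the range between them.

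The largest mean differences came from probes that were bright on some arrays of a dose and dim on others of the same dose. The largest higher difference, 8.66 log2 units (SE 1.76, 95% interval 4.79 to 12.53), belonged to a probe that read 1.55, 5.04, 7.03, 3.72 and 3.48 on the 29 ng/L arrays, the first not well above background. On the 1006 ng/L arrays it read 9.27, 7.45, 15.96, 15.11 and 16.36. The groups were separated by 0.42 log2 units, and within the high dose replicates 44, 45 and 46 stood far above replicates 41 and 42. Its limma adjusted p was 0.428. Replicate 36 at 287 ng/L read 15.89, close to those 3 arrays, while the other 287 ng/L arrays read 2.43 to 5.41 and the controls 4.38 to 7.85. The 4 bright arrays exceeded the other 16 by 5.98 log2 units on this probe. No other probe separated the same 4 arrays by more than 0.43, and 8 probes in all separated them by any amount. The 4 arrays were picked by this probe's own values, so these counts are a description.

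A second probe, with the next largest higher difference, read 2.66, 7.49, 5.03, 2.98 and 3.97 at 29 ng/L and 11.06, 8.20, 10.69, 6.39 and 11.35 at 1006 ng/L. Here replicate 23 of the low dose exceeded replicate 45 of the high dose, so the groups overlapped, and replicates 22 and 25 of the low dose were not well above background. The difference was 5.11 log2 units with a limma adjusted p of 0.428, and 3.03 after normexp.

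The largest lower difference, -6.40 log2 units (SE 2.30), had a limma adjusted p of 0.718. That probe read 16.84, 14.88, 13.89, 14.04 and 5.38 at 29 ng/L and 5.84, 3.31, 13.72, 6.13 and 4.06 at 1006 ng/L. In each dose 1 array crossed over, replicate 26 to the low side and replicate 44 to the high side, and the probe lay in the dim patch on replicate 42. Within slide 4, which holds both crossing arrays, the difference was -1.59, and within slide 3 it was -9.13. The next largest lower difference was -4.20 log2 units (SE 1.04), with a limma adjusted p of 0.593. That probe read 7.05, 9.71, 10.24, 10.17 and 7.65 at 29 ng/L and 3.53, 7.10, 7.16, 3.58 and 2.43 at 1006 ng/L, so that the groups overlapped only through replicate 22 of the low dose and replicates 42 and 44 of the high dose. Its difference was -1.56 within slide 4 and -5.11 within slide 3, and -2.54 after normexp.

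**Figure D5:**
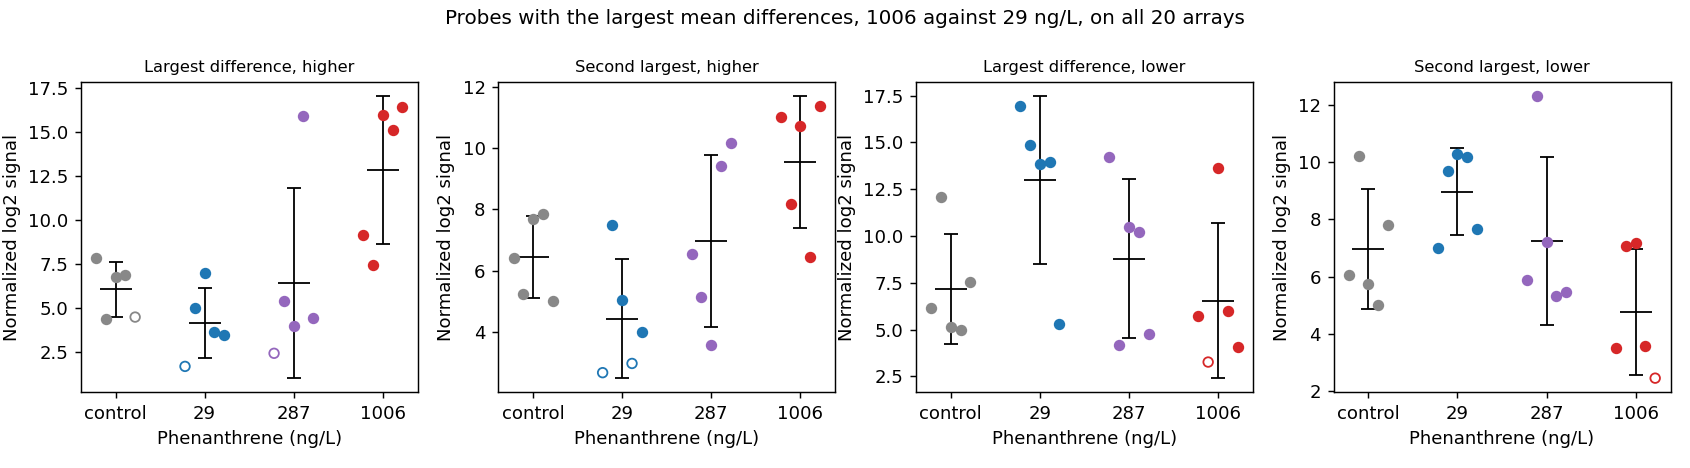
Normalized log2 signal by phenanthrene dose on all 20 arrays normalized together. Shown are the 2 higher and 2 lower probes with the largest mean differences among all probes tested. Points are arrays, open where not well above background, and bars are the mean and SD of 5 arrays. In the first panel 3 arrays at 1006 ng/L and 1 at 287 ng/L lie above 15 while the rest lie below 10, and in the third panel 1 array of each dose lies among the arrays of the other.

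Presence calls, which do not depend on scaling between arrays, separated the doses for 1 probe. On all 10 arrays 7166 fish probes (47.1%) stood well above background, and 1682 (11.1%) did so on none. Only 1 probe (0.00658% of fish probes) was well above background on 5 of 5 arrays at 1006 ng/L and 0 of 5 at 29 ng/L. The opposite was shown by 0 probes. The mean log2 signal of this 1 probe was 5.44 ± 1.39 at 1006 ng/L (SD, n = 5, range 3.15 to 6.77), against a measured mean of 2.56 at 29 ng/L. The measured signals overlapped, since the highest array at 29 ng/L read 3.52. Each 29 ng/L array was then set to the lowest signal of any probe well above background on that array. The probe's own signal was kept where that was higher. Against the mean of these levels, 3.39, the 1006 ng/L mean was 4.14-fold higher, and this ratio was not tested. The probe was picked by its calls at these doses. Its lowest array at 1006 ng/L, 3.15, lay under that level. The ratio is therefore a description and not a firm bound. The limma adjusted p of 0.428 belongs to the difference between the measured means. This probe was well above background on 4 of 5 arrays at 287 ng/L and 1 of 5 controls. With a looser rule, 12 probes (0.0789% of fish probes) passed on at least 4 more arrays at 1006 ng/L and 10 (0.0658%) on at least 4 more at 29 ng/L.

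The 287 ng/L and control arrays show where the other groups lay for the probes that differed most. The comparisons in this paragraph share the 29 ng/L or 1006 ng/L arrays that chose the probes, so the positions are a description. For the 217 higher probes the median difference from 29 ng/L was 1.14 log2 units at 1006 ng/L, 0.50 at 287 ng/L and 0.16 in controls. For the 434 lower probes it was -1.29, -0.67 and -0.37. The 287 ng/L mean lay between those at 29 and 1006 ng/L for 186 of the higher probes (85.7%) and 368 of the lower (84.8%). Over all probes tested with the higher and the lower mean at 1006 ng/L, the shares were 40.6% and 40.3%. The control mean lay between those doses for 63.6% and 75.1% of the picked probes, beside 27.5% and 35.8%. The probes were picked for a wide gap between 29 and 1006 ng/L, which by itself places other means inside it more often. These shares therefore cannot show a dose order. The control mean lay nearer to 1006 than to 29 ng/L for 51 of the higher probes (23.5%) and 122 of the lower (28.1%), beside 37.0% and 37.98%.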

How the data were processed

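The authors deposited, per the file headers, Agilent Feature Extraction 10.7.1.1 output for each 1-colour array, from which the processed signal, an intensity already background-subtracted and spatially detrended, was taken. The authors also deposited a table of log2 values that the sample titles call loess normalized. Its columns were mapped to samples by title, correlated best with their own array for all 20, and 1 column of no sample was unused. Here log2 processed signal of the 10 arrays was normalized by cyclic loess with limma 3.58.1 in R 4.3.3. Control spots (536 of 15744) were left out. Spots marked non-uniform or as population outliers were set to missing, so a fit drops that array for that probe. Probes that at least 4 arrays of 1 dose read well above background were tested with lmFit and eBayes, two-sided, with Benjamini-Hochberg adjustment over all 10100. The prior had 3.21 degrees of freedom beside 8 residual ones. Values for controls and 287 ng/L come from all 20 arrays normalized together. The scripts were tested on simulated data. Probes named are the 2 higher and the 2 lower with the lowest unadjusted p. Described without identifiers are the 2 largest mean differences each way among all probes tested, and the lone presence difference. Also described is the other contig of a named cluster, which was singled out after its values were seen. The comparison, lists and tests were chosen with earlier results of these data known. Alternatives covered normalization, background, filters, blocks for slide and scan session, weights, moderation and each array left out. No sequence of a probe or contig was used here.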

Additional observations from a re-analysis of the deposited data

Results flagged for a closer look

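In 30 sets of 5 arrays, 8 had an array whose gap to its nearest neighbour exceeded 0.71 of the set's range. That is the 95% limit of Dixon's test for 5 independent, normally distributed values, which about 5% of such sets exceed. The sets here share the same arrays and include counts of marked spots and probes picked for their differences. The 8 therefore cannot be read as an excess over 5%. Replicate 45 at 1006 ng/L was the brightest array, with a 75th percentile of 684 against 246 to 368 on the others of its dose, and it had 5 marked spots against 0 to 1. Replicate 22 at 29 ng/L had 201 marked spots against 0 to 5 and a score of -118 on component 2 against -5.96 to 31.5. Replicate 26 at 29 ng/L scored 87.2 on component 1 against -70.5 to -34.9.

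Among the probes described, UF_Ppr_AF_112748 read 10.26 on 29 ng/L replicate 23, whereas the others of that dose read 9.14 to 9.30. The probe with the largest lower difference read 5.38 on 29 ng/L replicate 26 (the others 13.89 to 16.84) and 13.72 on 1006 ng/L replicate 44 (the others 3.31 to 6.13). Whether brightness, marked spots or the profile of replicate 26 contribute to these values was not tested. The title of replicate 26 repeats its dose label, and nothing beyond these labels could check its dose.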

How the results depend on the processing

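The count of 0 probes called by limma was the same in 27 of 29 alternatives. Array quality weights gave 29 ng/L replicate 22 a weight of 0.304 and replicate 26 one of 0.452. They called 11 of the 10100 probes tested (2 higher, 9 lower) and left 1442 (14.3%) with an unadjusted p under 0.05. UF_Ppr_AF_101157, UF_Ppr_AF_116715 and UF_Ppr_AF_105101 were among the 11, with limma adjusted p of 0.0167, 0.0298 and 0.0298. On each of these probes replicate 26 was the 29 ng/L array nearest to the 1006 ng/L arrays, and these p are a description. Leaving out each array in turn gave 0 to 1 calls and 418 to 1402 probes (4.26% to 14.3%) with an unadjusted p under 0.05. Over the other alternatives that count ran from 271 (slide 4 alone, 2.56%) to 1252 (slide 3 alone, 11.2%), with 968 (8.91%) when all 20 arrays were fitted together. No direction of the 4 probes named by identifier reversed. The number of non-overlapping probes was 70 (0.693%) with 75th percentile scaling and 299 (3.23%) without the arrays with marked spots or a dim patch. It was 150 to 632 (1.53% to 6.45%) leaving out 1 array. The ratio of median SDs was 0.958 without those same arrays and 0.934 to 1.32 leaving out 1 array, under 1 without 29 ng/L replicate 22 or 26. The presence count was 1 to 6 leaving out 1 array, where all but 1006 ng/L replicate 45 moved it. The difference on component 1 ran from 24.9 to 70.4. Setting the dim patch to missing, chosen after seeing the data, gave 0 calls and 624 unadjusted. The causes were not tested. No paired analysis was possible because the doses share no replicate number.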

Other observations

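The array holds 709 contigs or sequences with a pair of probes each, and both probes of the pair were tested for 152. The mean log2 signals of the probes correlated at r = 0.0224 over all 709 pairs and at r = -0.121 over those 152. Over the 152 pairs the log2 differences between the doses correlated at r = 0.294, with the same sign in 88. The probes of a pair share the 10 arrays, so these correlations across probes are a description. A pair here is a probe whose sequence name ends in the suffix ms and the probe of the same name without it. The names thus set the probes of a pair apart, and how their designs differ was not tested. The low r therefore does not show that probes of the same design disagree. Probes with the suffix were left out where contigs of a cluster were correlated.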
